A study of Cricetulus griseus with 24 samples.

Results

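The mitosis genes are 38 named genes of entry into mitosis, chromosome attachment and cell division, and 37 of them have a row among the 26776 gene names of each count table. They were chosen by name, with earlier results of these data known. Kif11, a motor that pushes spindle poles apart, has no row under that name and was not analysed here. All 37 passed the filter on low counts in both experiments, and the smallest count of any of them in a library was 68 in the first experiment and 211 in the second.

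Cells enter mitosis when the kinase CDK1, bound to a cyclin B, becomes active, with help from Polo-like kinase 1 and Aurora kinase A. Each chromosome is then held through its kinetochores by spindle microtubules, and a checkpoint keeps the anaphase-promoting complex off until every kinetochore is attached. Once CDC20 activates that complex, cyclins and securin are destroyed, chromosomes separate, and a central spindle and an actin ring divide the cell. Transcripts of most of these genes are made late in the cell cycle, so their level in a culture moves both with the share of cells near division and with the amount of RNA per cell. In these bulk libraries the 2 cannot be told apart.

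The cells are LR73 phagocytes, a Chinese hamster ovary line, fed human Jurkat lymphoma cells that had been killed with ultraviolet C light. The first experiment has 4 groups of 4 libraries, namely phagocytes with apoptotic cells and cytochalasin D, with apoptotic cells, with cytochalasin D, and alone as control. Cytochalasin D caps growing actin filaments. The second experiment has Slc12a2-deficient and wildtype phagocytes, 4 libraries each, which were given apoptotic cells for 2 h and then sorted for a corpse signal (CypHer5E+). Slc12a2 encodes the sodium-potassium-chloride cotransporter NKCC1. The labels call all 4 libraries of a group biological replicates. The sources used here give neither the way Slc12a2 was removed nor whether the deficient cells are 1 clone, and for the first experiment they give no co-culture time.

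Libraries held 8272232 to 18911353 counted fragments in the first experiment and 22758587 to 28450594 in the second. Slc12a2 itself averaged 24.7 ± 1.59 CPM (fragment counts scaled to library size) in Slc12a2-deficient libraries and 96.8 ± 5.41 CPM in wildtype libraries (SD, n = 4 each), so its transcript was reduced but present. Of 11 fibroblast markers, Vim and Fn1 were abundant, whereas Col1a1, Col1a2, Thy1 and Lum were below 1 CPM in every group, although the labels call the cells fibroblasts. Of the 22 T cell markers with a row, which bear on RNA from Jurkat cells, 16 to 19 were below 1 CPM in each group, and Cd2, Cd3g and Cd5 had no count in any library. Tcf7, Lat and Cd28 were above 1 CPM in every group, also without corpses. In the first experiment Lck, Zap70 and Lef1 were counted mainly where apoptotic cells were present. In the second, where all libraries had apoptotic cells, Lck averaged 0.05 CPM in Slc12a2-deficient and 0.06 CPM in wildtype cells. In a principal component of the first experiment that did not follow the groups, control 4, cytochalasin D 1, and apoptotic cells with cytochalasin D 4 lay farthest out, so results are given without these 3 libraries where that changes them.

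Per kilobase of gene length, the 37 genes had a median level of 53.4 RPKM (CPM per kilobase) with apoptotic cells and cytochalasin D, 53.3 RPKM with apoptotic cells, 51.8 RPKM with cytochalasin D and 52.0 RPKM in control. Ube2c, the ubiquitin-conjugating enzyme of the anaphase-promoting complex, led in all 6 groups, at 257 RPKM with apoptotic cells and 206 RPKM in control. Birc5 (survivin), Plk1, Cdc20 and Ccnb1 (cyclin B1) followed in control, at 147, 132, 117 and 116 RPKM. Cdc25c, a phosphatase that switches on CDK1, was last everywhere, at 2.59 RPKM with apoptotic cells and 2.88 RPKM in control. Within a group the genes varied little between libraries, with a median coefficient of variation of 5.12% for apoptotic cells and 3.30% for control. In the sorted cells of the second experiment, which were counted in another table and are not tested against the first, the median was 73.6 RPKM in Slc12a2-deficient and 67.9 RPKM in wildtype cells. Top2a, which untangles DNA before chromosomes part, was second there at 255 RPKM in both genotypes.

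Phagocytes with apoptotic cells were compared with control to ask what the corpses do to unhindered phagocytes. By edgeR's quasi-likelihood test at an adjusted p under 0.05, 10 of 37 mitosis genes were higher and 1 was lower. Over all genes tested, 6.97% were higher and 6.68% lower, or 13.7% in either direction. The median log2 fold change of the 37 was 0.07, against 0.00 over all genes, and 31 of 37 had a positive value. Kif23, Aurka, Cdc20 and Ube2c, which act in cytokinesis, at entry and at anaphase, rose most, and no rise exceeded 1.38-fold. The 22 T cell markers also summed higher, to 42.8 to 46.7 CPM with apoptotic cells, against 35.0 to 37.2 CPM in control, and Lck averaged 3.20 CPM with apoptotic cells and 0.03 CPM in control. Zap70 averaged 3.35 and 0.01 CPM in these groups, and with apoptotic cells Lef1, Bcl11b, Cd3e and Cd3d had 105, 37, 13 and 7 counts over 4 libraries, where control libraries had 0. Jurkat cells divide and carry mitosis transcripts of their own, and the part of their RNA in the result was not tested.

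Kif23 encodes MKLP1, the motor of the centralspindlin complex that bundles microtubules between separating chromosomes. It had 141, 130, 136 and 140 CPM with apoptotic cells, against 98.9, 101, 97.1 and 98.5 CPM in control. The lowest library with apoptotic cells lay well above the highest control library. The fold change was 1.38 (log2 0.47 ± 0.04 SE, adjusted p = 9.71e-08). Prc1, the microtubule crosslinker that lays out the same central spindle, had 203, 196, 196 and 188 CPM with apoptotic cells and 176, 169, 170 and 173 CPM in control, also without overlap. It was 1.14-fold higher (adjusted p = 0.0104). The other 4 cytokinesis genes did not pass, with log2 values of -0.08 for the RhoA activator Ect2, 0.01 for the scaffold Anln, 0.05 for Racgap1, partner of Kif23, and 0.11 for the motor Kif20a.

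Of 4 genes of anaphase promotion, 2 rose. Cdc20, the activator of the anaphase-promoting complex, had 289, 289, 326 and 290 CPM with apoptotic cells and 228, 242, 231 and 228 CPM in control. Every library with apoptotic cells was above every control library, and 1 of them, apoptotic cells 3, stood above its 3 fellows. The rise was 1.29-fold (log2 0.36 ± 0.05 SE, adjusted p = 1.38e-05). Ube2c had 190, 196, 229 and 197 CPM with apoptotic cells, against 158, 172, 159 and 163 CPM in control, again without overlap and with apoptotic cells 3 highest. It was 1.25-fold higher (adjusted p = 0.00038). Securin (Pttg1), which holds separase in check, and separase itself (Espl1), the protease that cuts cohesin, had log2 values of 0.10 and 0.07 and did not pass.

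Among the 8 genes that drive entry into mitosis, 4 rose. Aurka, the centrosomal kinase that helps activate Plk1, had 82.0, 84.2, 85.4 and 84.9 CPM with apoptotic cells, against 61.8, 66.8, 60.2 and 66.4 CPM in control. These sets were well apart, and the fold change was 1.32 (log2 0.40 ± 0.05 SE, adjusted p = 2.49e-05). Plk1, a kinase used from entry to cytokinesis, had 338, 327, 353 and 325 CPM with apoptotic cells and 276, 290, 298 and 299 CPM in control. It was 1.16-fold higher in the absence of overlap (adjusted p = 0.000963). Both B cyclins rose by less: Ccnb2 averaged 164 ± 9.58 CPM with apoptotic cells and 147 ± 3.46 CPM in control, and Ccnb1 286 ± 15.0 and 263 ± 7.45 CPM (SD, n = 4 each, adjusted p = 0.0214 and 0.0306). Ccnb1 overlapped between the groups. Cdk1 did not pass at a log2 value of 0.10, although its groups did not overlap, and neither did Ccna2 (cyclin A2), Cdc25c or Cks2, a small CDK subunit, which was variable in control at 24.5 to 36.5 CPM.

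In the chromosomal passenger complex, whose Aurora B kinase corrects faulty attachments, 1 of 4 genes rose. Cdca8 (borealin), a subunit that brings the complex to centromeres, had 85.5, 82.3, 96.0 and 83.1 CPM with apoptotic cells and 67.9, 72.0, 74.3 and 71.3 CPM in control, without overlap. It was 1.22-fold higher (adjusted p = 0.0019), while Aurkb, Incenp and Birc5 did not pass, at log2 values of 0.01, 0.08 and -0.08. The spindle assembly factor Tpx2, which switches on Aurora A, averaged 208 ± 3.26 CPM with apoptotic cells and 190 ± 2.67 CPM in control (SD, n = 4 each, adjusted p = 0.0291). The gene that fell was Spc25, a subunit of the Ndc80 complex that grips microtubules. It had 54.2, 55.8, 53.4 and 52.2 CPM with apoptotic cells, all below the control values of 63.1, 62.5, 65.9 and 57.5 CPM (log2 -0.21, adjusted p = 0.0146). Its partners Ndc80 and Nuf2 had log2 values of 0.09 and 0.06 and did not pass. None of the 4 spindle checkpoint genes was called by edgeR, DESeq2 or limma-voom, and 1 had an unadjusted p under 0.05 by edgeR. The groups did not overlap for 15 of 37 mitosis genes, compared with 19.6% of all genes tested that did not overlap.

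Of the 11 calls, 7 were kept whichever single library was left out. Ccnb1 was lost without apoptotic cells 1, 2 or 4 or control 2, 3 or 4 (adjusted p 0.0515 to 0.124), and Tpx2 without apoptotic cells 1, 3 or 4 or control 2, 3 or 4 (0.0523 to 0.071). Ccnb2 was lost without apoptotic cells 2 or 3 or control 1 or 3 (0.0533 to 0.0927), and Spc25 without apoptotic cells 4 or control 3 (0.0519 to 0.0524). Without control 3, the count of mitosis genes called was 7. Ccnb1 and Tpx2 also missed the threshold without the 3 libraries that stood apart (adjusted p = 0.0546 and 0.0644).

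**Figure D1:**
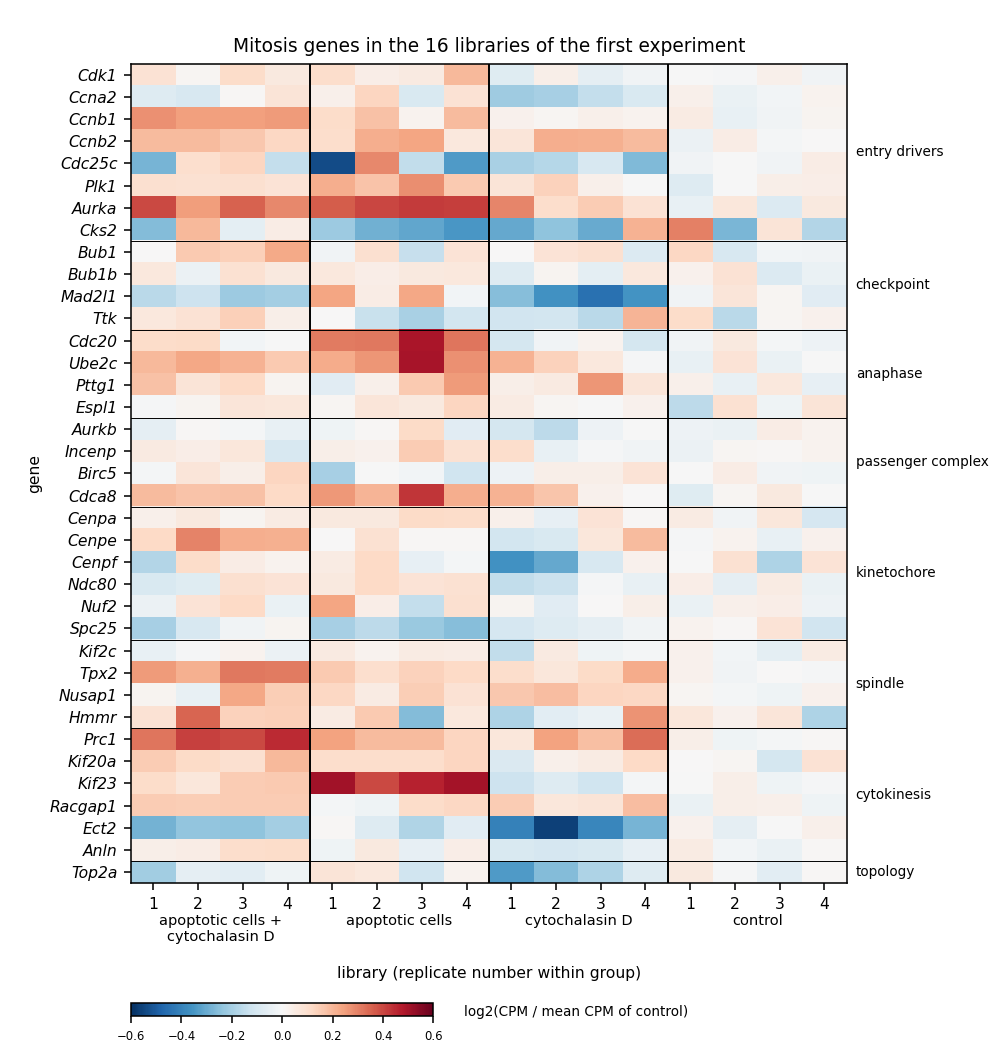
Each cell is the log2 ratio of a gene's CPM in 1 library to its mean CPM in control, for 37 mitosis genes grouped by role (rows) in 16 libraries (columns, 4 per group). Kif23 and Cdc20 stand out as highest in the libraries with apoptotic cells alone. Prc1 and Ccnb1 stand out as higher with both agents, and Ect2 and Mad2l1 as lower with cytochalasin D. Aurka was above control with apoptotic cells, with or without the drug, and was also called higher with cytochalasin D alone. Under the drug, Aurka was not called for apoptotic cells against none.

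Other cell cycle genes were counted in the same comparison of apoptotic cells with control, where 6.97% of all genes were higher and 6.68% lower. Among 41 further spindle, centrosome and cytokinesis genes, 8 were higher and 1 was lower, and the 9 called became 5 without control 3. Ckap2, a microtubule-binding protein of the mitotic spindle, averaged 68.1 ± 2.49 CPM with apoptotic cells and 53.1 ± 3.22 CPM in control (SD, n = 4 each, log2 0.36, adjusted p = 0.000157). Of 12 regulators of mitotic entry, 3 were higher and 1 was lower. Cyclin F (Ccnf), a substrate receptor of an SCF ubiquitin ligase, averaged 165 ± 4.88 CPM with apoptotic cells and 131 ± 5.81 CPM in control (log2 0.33, adjusted p = 0.00012). Of 33 genes of G1/S and replication, 6 were higher and 0 lower by edgeR, 7 and 0 by both DESeq2 and limma-voom, with 13 higher and 0 lower at an unadjusted p under 0.05 by edgeR. The count by edgeR was 3 without apoptotic cells 4 or control 1. Cdc6, which loads the replicative helicase, averaged 66.0 ± 1.74 CPM with apoptotic cells and 52.0 ± 3.45 CPM in control (log2 0.34, adjusted p = 0.00185). Of 19 condensin and cohesin genes, only Esco2, an acetyltransferase of cohesin, was called, at log2 -0.38. Not all lists rose. Among 33 other kinetochore and checkpoint genes 2 were higher and 1 was lower, a share of 9.09%. The 16 genes of the anaphase-promoting complex and its regulators had 1 higher and 1 lower. The 17 transcription regulators of the cell cycle had 1 higher and 3 lower. Of 4 CDK inhibitors tested, 3 were higher.

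Cytochalasin D was compared with control, both without corpses, to show the drug's own effect. It raised 6 mitosis genes and lowered 4, against 13.5% higher and 12.8% lower among all genes tested, so the share of 10 in 37 was near the background of 26.3%. The median log2 fold change of the 37 was 0.00 and 19 were positive. Groups were without overlap for 12 of 37 mitosis genes and for 24.3% of all genes tested. The genes that fell included the RhoA activator of cytokinesis and a checkpoint protein, and those that rose included the central spindle crosslinker and Aurora A with its activator.

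Ect2 is the exchange factor that turns on RhoA at the cleavage site. It had 144, 129, 146 and 157 CPM with cytochalasin D, against 195, 184, 191 and 195 CPM in control. All 4 treated libraries were below all 4 controls, and Ect2 fell by 0.41 ± 0.05 (SE) on the log2 scale (adjusted p = 1.33e-06). Mad2l1 encodes MAD2, which holds CDC20 inactive while kinetochores are free. It had 52.5, 48.8, 46.1 and 48.9 CPM with cytochalasin D and 61.9, 65.9, 63.3 and 59.9 CPM in control. These groups were also apart (log2 -0.36, adjusted p = 0.00012), while the other 3 checkpoint genes lay between -0.04 and 0.02 on the log2 scale and did not pass. Top2a had 489, 517, 543 and 586 CPM with cytochalasin D, below the control values of 645, 615, 592 and 622 CPM, although cytochalasin D 4 lay near control 3 (log2 -0.21, adjusted p = 0.00335). Cyclin A2 (Ccna2), which rises from S phase, averaged 171 ± 6.57 CPM with cytochalasin D and 192 ± 4.45 CPM in control (SD, n = 4 each, log2 -0.16, adjusted p = 0.0152). Its call was lost without the 3 libraries that stood apart (adjusted p = 0.0734).

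Prc1 was the mitosis gene that rose most. It had 180, 203, 195 and 217 CPM with cytochalasin D, against 176, 169, 170 and 173 CPM in control. The groups did not overlap, and the rise was 1.16-fold (log2 0.21, adjusted p = 0.00169). Ccnb2 averaged 166 ± 7.88 CPM with cytochalasin D and 147 ± 3.46 CPM in control (log2 0.18, adjusted p = 0.00516). Smaller rises were called for Aurka (log2 0.16), Nusap1, which bundles spindle microtubules (0.15), Tpx2 (0.13) and Racgap1 (0.12), with adjusted p of 0.0306, 0.0318, 0.0161 and 0.0389. Aurka was lost without control 1 or 3 or cytochalasin D 1 or 3 (adjusted p 0.0545 to 0.144), Tpx2 without cytochalasin D 4 (0.0727), and Nusap1 without control 1, 2 or 3 or cytochalasin D 1, 2 or 3 (0.0503 to 0.0937). Racgap1 was lost without control 1, 3 or 4, cytochalasin D 1 or 4, or apoptotic cells with cytochalasin D 1, 3 or 4 (0.0511 to 0.112). Without the 3 libraries that stood apart, 6 of the 10 calls were kept, with 3 higher and 3 lower.

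Of 33 genes of G1/S and replication, 25 fell and 1 rose with cytochalasin D, with a median log2 fold change of -0.36. Lists of further spindle, kinetochore and anaphase-promoting complex genes were close to or below the background of 26.3% called, but not all lists near mitosis were. Of 41 further spindle, centrosome and cytokinesis genes 2 rose and 8 fell, of 33 other kinetochore and checkpoint genes 1 rose and 3 fell, and of 16 genes of the anaphase-promoting complex and its regulators 1 fell. Of 12 regulators of mitotic entry 1 rose and 4 fell, a share of 41.7% that is above this background but coarse, since it rests on 12 genes. Ung, which removes uracil from DNA, averaged 14.7 ± 2.47 CPM with cytochalasin D and 44.1 ± 1.53 CPM in control (log2 -1.57, adjusted p = 1.65e-11). Both E cyclins, which start S phase with CDK2, were lower, Ccne2 at 15.5 ± 1.80 and 42.4 ± 4.15 CPM (log2 -1.45) and Ccne1 at 7.28 ± 0.62 and 16.4 ± 1.73 CPM (log2 -1.17) in cytochalasin D and control. Gins3, part of the replicative helicase, was the gene that rose (log2 0.45, adjusted p = 0.000204). Of 17 transcription regulators of the cell cycle 10 fell, E2f8 and E2f7, repressors that act late in S phase, by 0.67 and 0.60 on the log2 scale. Of 19 condensin and cohesin genes 9 fell, a share of 47.4%, among them the condensin subunit Ncapg (log2 -0.41, adjusted p = 0.00217). In both of these lists 0 genes rose by edgeR, DESeq2 or limma-voom, and 0 rose at an unadjusted p under 0.05 by any of the 3. Fbxo5 (EMI1), an inhibitor of the anaphase-promoting complex made at the G1/S transition, averaged 20.3 ± 2.28 CPM with cytochalasin D and 34.0 ± 2.52 CPM in control (log2 -0.74, adjusted p = 4.89e-06). Of 4 CDK inhibitors tested, 1 was called. This was p21 (Cdkn1a), which rose to 262 ± 28.9 CPM with cytochalasin D, against 150 ± 9.20 CPM in control (SD, n = 4 each, 1.74-fold, adjusted p = 7.41e-09).

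**Figure D2:**
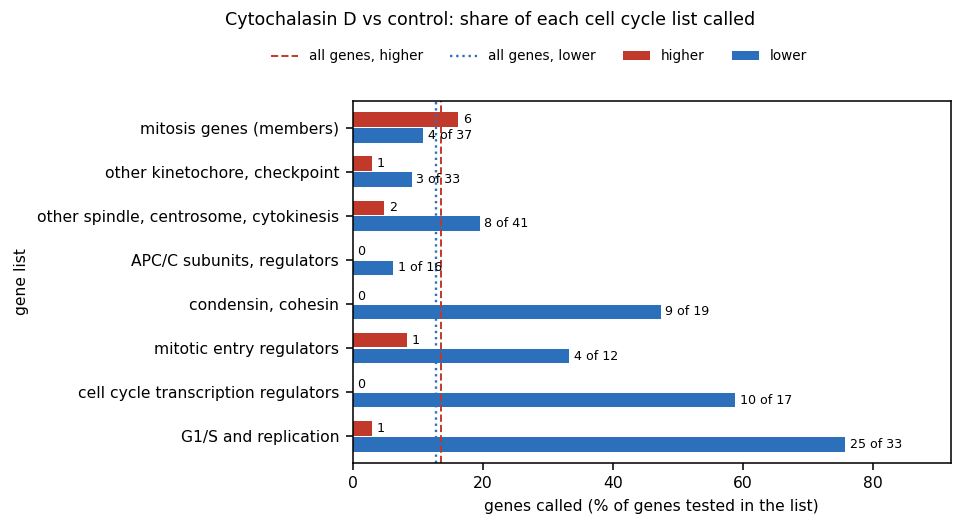
Bars give the share of each gene list called higher or lower with cytochalasin D than in control, as percent of its genes tested, with counts at the bar ends and vertical lines at the shares over all genes (13.5% higher and 12.8% lower). The mitosis genes lie near both lines, whereas 25 of 33 genes of G1/S and replication were lower.

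Under cytochalasin D, phagocytes with apoptotic cells were compared with phagocytes without them, which asks what corpses do when actin assembly is blocked. Here 7 of 37 mitosis genes were higher and 0 lower by edgeR, against 4.82% higher and 3.79% lower, or 8.61% in either direction, over all genes. DESeq2 called 8 higher and 0 lower, limma-voom 7 and 0, and at an unadjusted p under 0.05 edgeR had 15 higher and 0 lower. The median log2 fold change was 0.10, against -0.01 over all genes, and 33 of 37 were positive. Only 4 of 37 mitosis genes had groups without overlap, against 13.5% of all genes tested. Of the 6 cytokinesis genes 4 rose, which were Kif23, Prc1, Ect2 and Anln, though 2 did so without cytochalasin D 1 or 3 or apoptotic cells with cytochalasin D 4. The T cell markers summed to 42.9 to 47.3 CPM with both agents, against 30.8 to 37.1 CPM with cytochalasin D, and their part in the result was not tested.

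Ccnb1 had 318, 311, 311 and 314 CPM with apoptotic cells and cytochalasin D, against 267, 265, 269 and 267 CPM with cytochalasin D. Both sets were narrow and far apart, and the rise was 1.18-fold (log2 0.23 ± 0.04 SE, adjusted p = 0.000257). Kif23 had 107, 104, 110 and 110 CPM with both agents and 90.8, 93.7, 91.2 and 98.3 CPM with cytochalasin D, a smaller step than without the drug but still without overlap. It was 1.15-fold higher (log2 0.21, adjusted p = 0.00337). Anln (anillin), which ties the actin ring to the membrane, had 376, 378, 394 and 395 CPM with both agents and 344, 341, 344 and 354 CPM with cytochalasin D. It did not overlap either (log2 0.16, adjusted p = 0.00568). These 3 were kept whichever library was left out, though Anln missed the threshold without the 3 libraries that stood apart (adjusted p = 0.0524).

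The other 4 overlapped between the groups. Cenpe, a kinetochore motor that moves chromosomes to the spindle equator, had 165, 187, 177 and 177 CPM with both agents, against 141, 143, 159 and 174 CPM with cytochalasin D (adjusted p = 0.031). Ect2 had 157, 162, 162 and 166 CPM with both agents and 144, 129, 146 and 157 CPM with cytochalasin D (adjusted p = 0.0453), below control either way. Prc1 and Tpx2 had log2 fold changes of 0.18 and 0.15 (adjusted p = 0.0167 and 0.0185). In all 4, cytochalasin D 4 was the highest of the drug-only libraries. All 4 were lost without the 3 libraries that stood apart (adjusted p 0.135 to 0.183), and each was also lost on leaving out single libraries. Prc1 was lost without cytochalasin D 1 or 3 or apoptotic cells with cytochalasin D 4 (0.0545 to 0.0635), and Tpx2 without cytochalasin D 2 or 3 or apoptotic cells with cytochalasin D 3 or 4 (0.0532 to 0.0608). Cenpe was lost without cytochalasin D 1 or 2 or apoptotic cells with cytochalasin D 2, 3 or 4 (0.0636 to 0.117). Ect2 was lost without cytochalasin D 1, 2 or 3, apoptotic cells with cytochalasin D 2, 3 or 4, apoptotic cells 2 or 4, or control 3 or 4 (0.0504 to 0.172).

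The count of 7 itself rested on single libraries. It was 3 without apoptotic cells with cytochalasin D 4, 4 without apoptotic cells with cytochalasin D 3, 4 without cytochalasin D 2 or 3, and 11 without cytochalasin D 4. Without all 3 libraries that stood apart it was 3. The mean log2 deviation of the 37 genes from their means over 16 libraries was 0.00 to 0.07 with both agents, 0.04 to 0.06 with apoptotic cells, -0.09 to -0.01 with cytochalasin D and -0.04 to -0.02 in control, and cytochalasin D 4 was the drug-only library at -0.01. Ccnb1, Kif23, Prc1 and Tpx2 were called for apoptotic cells both without and with cytochalasin D, in comparisons that share no library. These 4 are 36.4% of the 11 genes called without the drug and 57.1% of the 7 called with it. Over all genes tested, 435 were called in both comparisons, which is 24.3% of the 1789 called without the drug and 38.5% of the 1129 called with it. Of the 435, 396 had the same direction in both, as the 4 mitosis genes did. Without the 3 libraries that stood apart, only Kif23 of the 4 kept both calls.

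**Figure D3:**
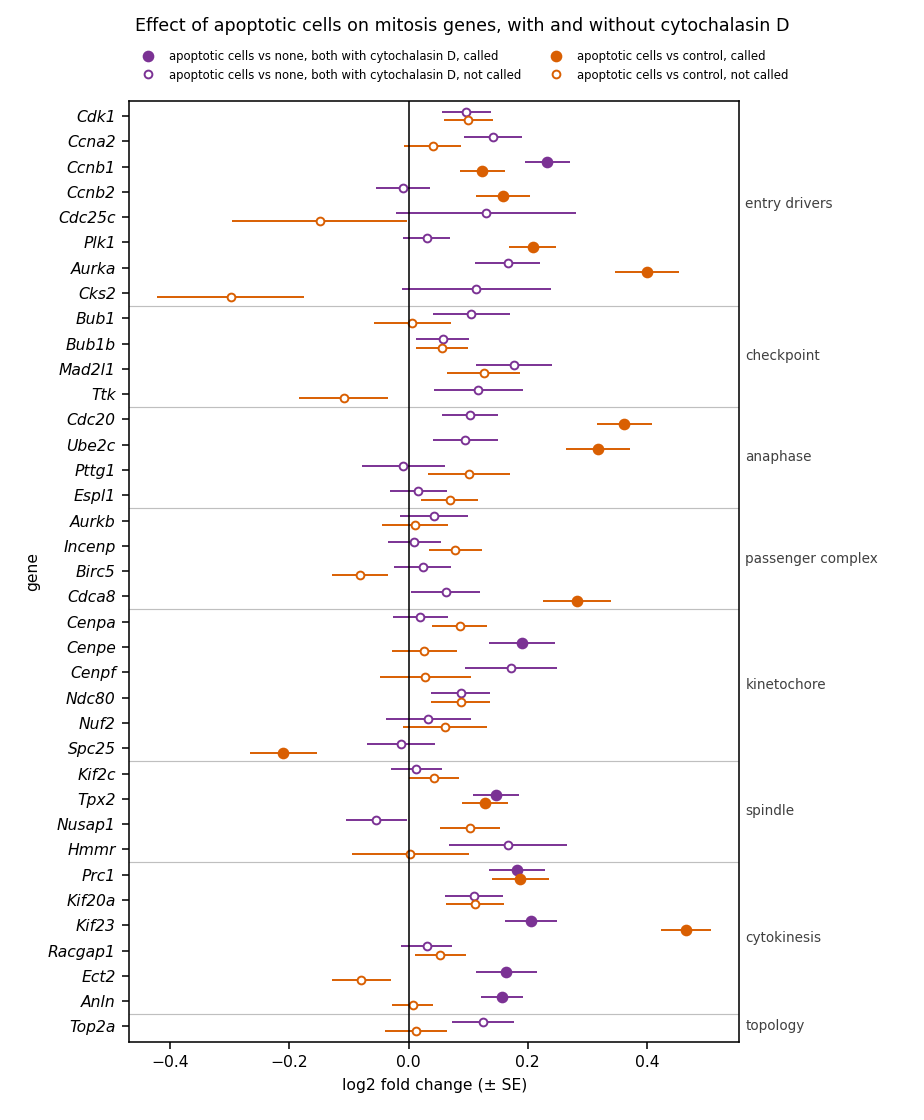
Points are log2 fold changes (± SE) of 37 mitosis genes for apoptotic cells against none, both with cytochalasin D (upper point of each gene), and for apoptotic cells against control (lower point). Filled points were called by edgeR at an adjusted p under 0.05. Kif23 and Cdc20 show the gap between the comparisons that passed the test of the difference.

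Whether the effect of apoptotic cells differed with and without cytochalasin D was tested directly as the difference between the log2 fold changes. It was called lower for 2 mitosis genes and higher for 0 by edgeR, against 1.53% lower and 3.03% higher, or 4.56% in either direction, over all genes. At an unadjusted p under 0.05, edgeR had 6 higher and 8 lower, limma-voom called 0 higher and 2 lower, and DESeq2 called 2 higher and 3 lower. Kif23 was 0.21 with the drug and 0.47 without it, a difference of -0.26 ± 0.06 (SE, adjusted p = 0.0162). Cdc20 was 0.10 with the drug and 0.36 without it, a difference of -0.26 ± 0.07 (SE, adjusted p = 0.0279). Aurka, Ube2c, Cdca8 and Plk1, which rose with apoptotic cells alone, had differences of -0.23, -0.22, -0.22 and -0.18 that did not pass (adjusted p 0.066 to 0.114).

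Neither call was kept without the 3 libraries that stood apart, where the adjusted p was 0.0618 for Kif23 and 0.118 for Cdc20. Of mitosis genes, edgeR then called 0, with 3 higher and 6 lower at an unadjusted p under 0.05. The Kif23 call was kept whichever single library was left out. Cdc20 was lost without apoptotic cells 3, apoptotic cells with cytochalasin D 3 or 4, control 1, 3 or 4, or cytochalasin D 2 or 3 (adjusted p 0.051 to 0.0729), which left a count of 1 in each case. Without cytochalasin D 4 the count was 11, with 5 higher and 6 lower.

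Cytochalasin D in the presence of apoptotic cells, set against apoptotic cells alone, raised 5 mitosis genes and lowered 5, where 16.4% of all genes were higher and 16.1% lower. The share of 10 in 37, or 27.0%, thus did not exceed the background of 32.5%. Groups did not overlap for 14 of 37 mitosis genes and 32.1% of all genes tested. The group with both agents is the same as in the comparison above, and the values are given side by side only. Kif23 had 107, 104, 110 and 110 CPM with both agents, against 141, 130, 136 and 140 CPM with apoptotic cells, and fell by 0.34 on the log2 scale (adjusted p = 1.12e-06). Cdc20 had 251, 251, 230 and 231 CPM with both agents, below all of the 289, 289, 326 and 290 CPM with apoptotic cells (log2 -0.31, adjusted p = 1.57e-05). Both genes with both agents were nearer to control than to apoptotic cells alone. Mad2l1 had 56.1, 57.5, 53.9 and 54.6 CPM with both agents and 74.0, 64.8, 73.6 and 62.0 CPM with apoptotic cells, again apart (log2 -0.31, adjusted p = 0.000517). Ect2 and Plk1 fell by 0.16 and 0.12 on the log2 scale (adjusted p = 0.0159 and 0.0257). Ect2 was lost without apoptotic cells 1 (adjusted p = 0.0584), and Plk1 without apoptotic cells 3 (0.109) and without the 3 libraries that stood apart (0.0619).

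Prc1 was the gene that rose most in that comparison, with 214, 229, 226 and 235 CPM with both agents and 203, 196, 196 and 188 CPM with apoptotic cells (log2 0.20, adjusted p = 0.00176). Its means were 226 CPM with both agents, 196 CPM with apoptotic cells, 199 CPM with cytochalasin D and 172 CPM in control, so it was lowest where neither agent was present. Ccnb1, Cenpe, Tpx2 and Birc5 rose by 0.13, 0.18, 0.15 and 0.14 on the log2 scale (adjusted p = 0.00933, 0.0119, 0.00531 and 0.0328). Cenpe was lost without apoptotic cells with cytochalasin D 2 (0.0555). Birc5 overlapped and was lost without apoptotic cells 1 or 4, apoptotic cells with cytochalasin D 2, 3 or 4 (0.0593 to 0.142) and the 3 libraries that stood apart (0.121). Of the 33 genes of G1/S and replication, 26 fell and 1 rose, with a median log2 fold change of -0.41. The gene that rose, Gins3 (adjusted p = 0.0482), was lost on leaving out any of 13 single libraries (0.0507 to 0.162). Of 7 fibroblast markers tested 4 fell, among them Vim at 3247 ± 244 CPM with both agents and 5420 ± 202 CPM with apoptotic cells, and their part in the result was not tested. Of 4 CDK inhibitors tested, 1 rose and 3 fell. Cdkn1a, the one that rose, averaged 269 ± 23.2 CPM with both agents and 175 ± 14.0 CPM with apoptotic cells (log2 0.62, adjusted p = 3.23e-07).

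**Figure D4:**
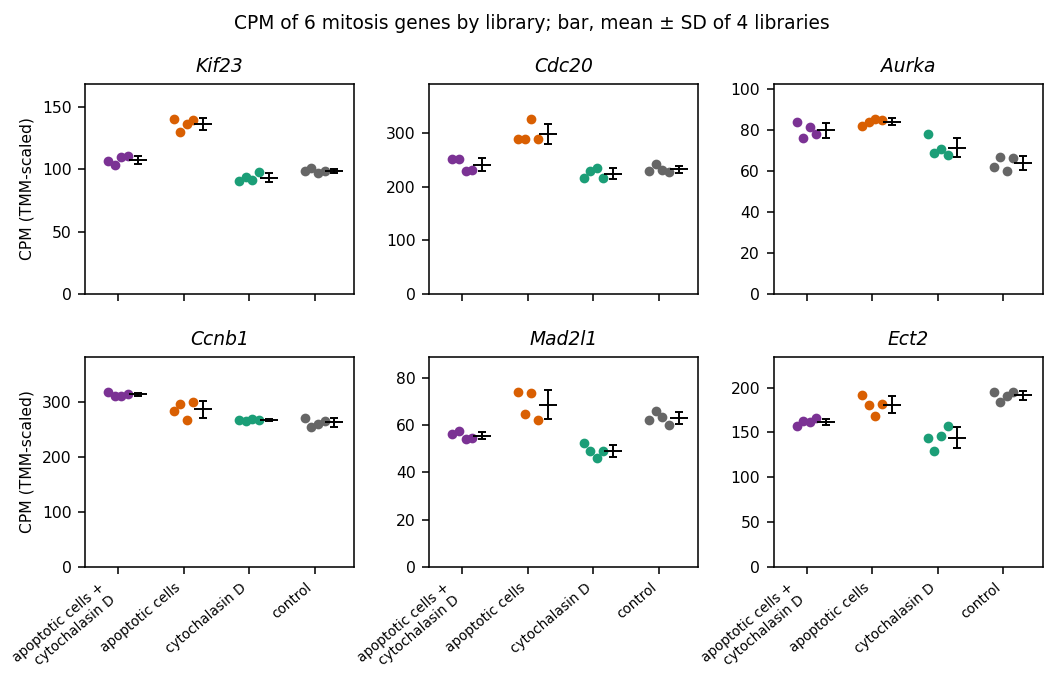
Points are CPM of 6 mitosis genes in each library of the first experiment, by group, beside the mean ± SD (n = 4), on axes that start at 0. Kif23 and Cdc20 are highest with apoptotic cells alone, Ccnb1 with both agents, and Mad2l1 and Ect2 are lowest with cytochalasin D.

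In the second experiment, sorted Slc12a2-deficient phagocytes were compared with sorted wildtype phagocytes, all engulfing corpses. Of the 37 mitosis genes 11 were higher and 2 lower, whereas 21.1% of all genes were higher and 21.3% lower. The 13 of 37 called, a share of 35.1%, did not exceed the background of 42.5%. The median log2 fold change was 0.07, against 0.00 over all genes, and 29 of 37 were positive. Genotypes did not overlap for 13 of 37 mitosis genes, against 39.6% of all genes tested. Of the 11 that rose, 7 were 3 of 4 checkpoint genes, 3 of 4 passenger complex genes and the kinetochore gene Ndc80. Among 33 other kinetochore and checkpoint genes 8 were higher and 1 was lower, a share of 27.3% against 42.5% over all genes. The T cell markers summed to 23.3 to 28.2 CPM in Slc12a2-deficient cells and 29.6 to 32.3 CPM in wildtype cells, and Lck averaged 0.05 and 0.06 CPM. Most of the sums came from Tcf7, Lat and Cd28, and 19 markers were below 1 CPM. Tcf7, Lat and Cd28 averaged 18.5, 4.66 and 1.36 CPM in Slc12a2-deficient cells and 16.1, 10.8 and 3.92 CPM in wildtype cells. In the first experiment they averaged 23.7, 11.0 and 1.30 CPM in control, which had no corpses. Of the fibroblast markers, all 7 that passed the filter on low counts were called, 1 higher and 6 lower. Fn1 averaged 654 ± 101 CPM in Slc12a2-deficient cells and 1248 ± 49.7 CPM in wildtype cells, and Pdgfrb 1.38 ± 0.47 and 6.71 ± 0.42 CPM (SD, n = 4 each). The part of this shift in the result was not tested. Of the 6 cytokinesis genes none was called by edgeR, DESeq2 or limma-voom, and 1 was higher at an unadjusted p under 0.05 by each.

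Bub1, a checkpoint kinase that marks centromeres, had 139, 124, 146 and 159 CPM in Slc12a2-deficient cells, against 110.5, 105, 109 and 108 CPM in wildtype cells. The wildtype values were close together and all below the deficient ones. It was 1.31-fold higher (log2 0.39 ± 0.06 SE, adjusted p = 0.000106). Ttk (MPS1), the kinase that starts checkpoint signalling, had 107, 96.9, 102 and 106 CPM in Slc12a2-deficient cells and 82.8, 77.9, 83.0 and 81.9 CPM in wildtype cells, without overlap. Its fold change was 1.26 (log2 0.34, adjusted p = 3.08e-05). Mad2l1 averaged 93.4 ± 3.40 CPM in Slc12a2-deficient cells and 84.5 ± 2.51 CPM in wildtype cells (SD, n = 4 each, adjusted p = 0.0179), and was lost without wildtype 3 or 4 (0.0531 to 0.0578). Bub1b (BUBR1), the other checkpoint gene, did not pass at log2 0.02.

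Ndc80, the kinetochore subunit that binds microtubules, had 197, 194, 204 and 211 CPM in Slc12a2-deficient cells and 165, 160, 169 and 166 CPM in wildtype cells. These sets were clearly apart, and the rise was 1.22-fold (log2 0.29, adjusted p = 5.93e-05). The other 5 kinetochore genes did not pass, at log2 values of 0.05 to 0.11. Birc5, the survivin subunit of the passenger complex, had 89.8, 96.7, 94.6 and 89.7 CPM in Slc12a2-deficient cells and 80.8, 73.5, 78.3 and 76.5 CPM in wildtype cells (log2 0.26, adjusted p = 0.000336), without overlap. The complex's scaffold Incenp and Cdca8 rose by 0.16 and 0.17 on the log2 scale (adjusted p = 0.013 and 0.0167), and Cdca8 overlapped between the genotypes.

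Hmmr, a spindle-associated protein, and Pttg1 each rose by 0.21 on the log2 scale (adjusted p = 0.00408 and 0.00601), and both kept their calls whichever library was left out. Cks2 and Nusap1 rose by 0.17 and 0.13 (adjusted p = 0.0195 and 0.0174). Cks2 was lost without Slc12a2-deficient 1 or wildtype 2 (0.0518 to 0.0582), and Nusap1 without wildtype 3 or 4 (0.0515 to 0.0523). The genes that fell were Cdc20, with 195, 221, 237 and 229 CPM in Slc12a2-deficient cells and 242, 239, 249 and 264 CPM in wildtype cells, and Ccnb2, with 149 ± 2.95 and 161 ± 4.75 CPM (SD, n = 4 each). The Cdc20 groups did not overlap, though the highest Slc12a2-deficient library lay close to the lowest wildtype library (log2 -0.17, adjusted p = 0.0239), and its call was lost without Slc12a2-deficient 1 or wildtype 3 or 4 (0.0525 to 0.0896). The Ccnb2 call (log2 -0.12, adjusted p = 0.0326) was lost without Slc12a2-deficient 1 or 3 or any 1 of the 4 wildtype libraries (0.0585 to 0.127). The main mitotic kinase gene Cdk1 had non-overlapping groups but did not pass (log2 -0.11, adjusted p = 0.059).

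The other cell cycle lists are to be read against the same 21.1% higher and 21.3% lower over all genes. Of 19 condensin and cohesin genes 9 were higher and 1 was lower. Rad21, the cohesin subunit that separase cuts, averaged 310 ± 27.1 CPM in Slc12a2-deficient cells and 183 ± 5.14 CPM in wildtype cells (log2 0.76, adjusted p = 3.15e-08), and Smc3, a cohesin ATPase, 702 ± 26.1 and 458 ± 3.33 CPM (log2 0.61, adjusted p = 9.19e-09). Of 33 genes of G1/S and replication 15 were higher and 1 was lower, led by the chromatin assembly subunit Chaf1a at 111 ± 7.90 and 55.8 ± 3.27 CPM (log2 0.99, adjusted p = 2.42e-09). Of 12 regulators of mitotic entry 1 was higher and 4 were lower, and 3 were called without Slc12a2-deficient 3. Of 41 further spindle, centrosome and cytokinesis genes 14 were higher and 5 lower, a share of 46.3% near the background of 42.5%. Those that fell include Kif20b and Cep55, which act late in cytokinesis, at log2 -0.53 and -0.52 (adjusted p = 1.25e-05 and 5.87e-07). Of 4 CDK inhibitors tested, 1 was higher and 1 lower. Cdkn1a was the lower one at 84.6 ± 9.92 CPM, against 111 ± 9.40 CPM in wildtype cells (SD, n = 4 each, log2 -0.39, adjusted p = 0.000811).

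The library numbers in the labels of the second experiment run from 09 to 16, and the mitosis genes moved with them within each genotype. The labels do not call the numbers a batch. Libraries numbered 13 to 16 were above those numbered 09 to 12 by a median log2 of 0.13 in Slc12a2-deficient cells, with 33 of 37 genes positive, and of 0.09 in wildtype cells, with 32 of 37 positive. Over all genes both medians were 0.00. Each genotype has 2 libraries in each range, so the genotypes can be set against each other within it. The median of Slc12a2-deficient minus wildtype was 0.07 among numbers 09 to 12, with 23 of 37 positive, and 0.08 among numbers 13 to 16, with 31 of 37 positive. Bub1, Ttk, Ndc80 and Birc5 were higher in both ranges, by 0.29 and 0.49, 0.34 and 0.33, 0.27 and 0.31, and 0.27 and 0.25 on the log2 scale. Cdc20 was lower in both, at -0.22 and -0.14. With the number range as a term in the fit, 18 mitosis genes were called, 15 higher and 3 lower, against 47.7% of all genes, and all 13 calls were kept.

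**Figure D5:**
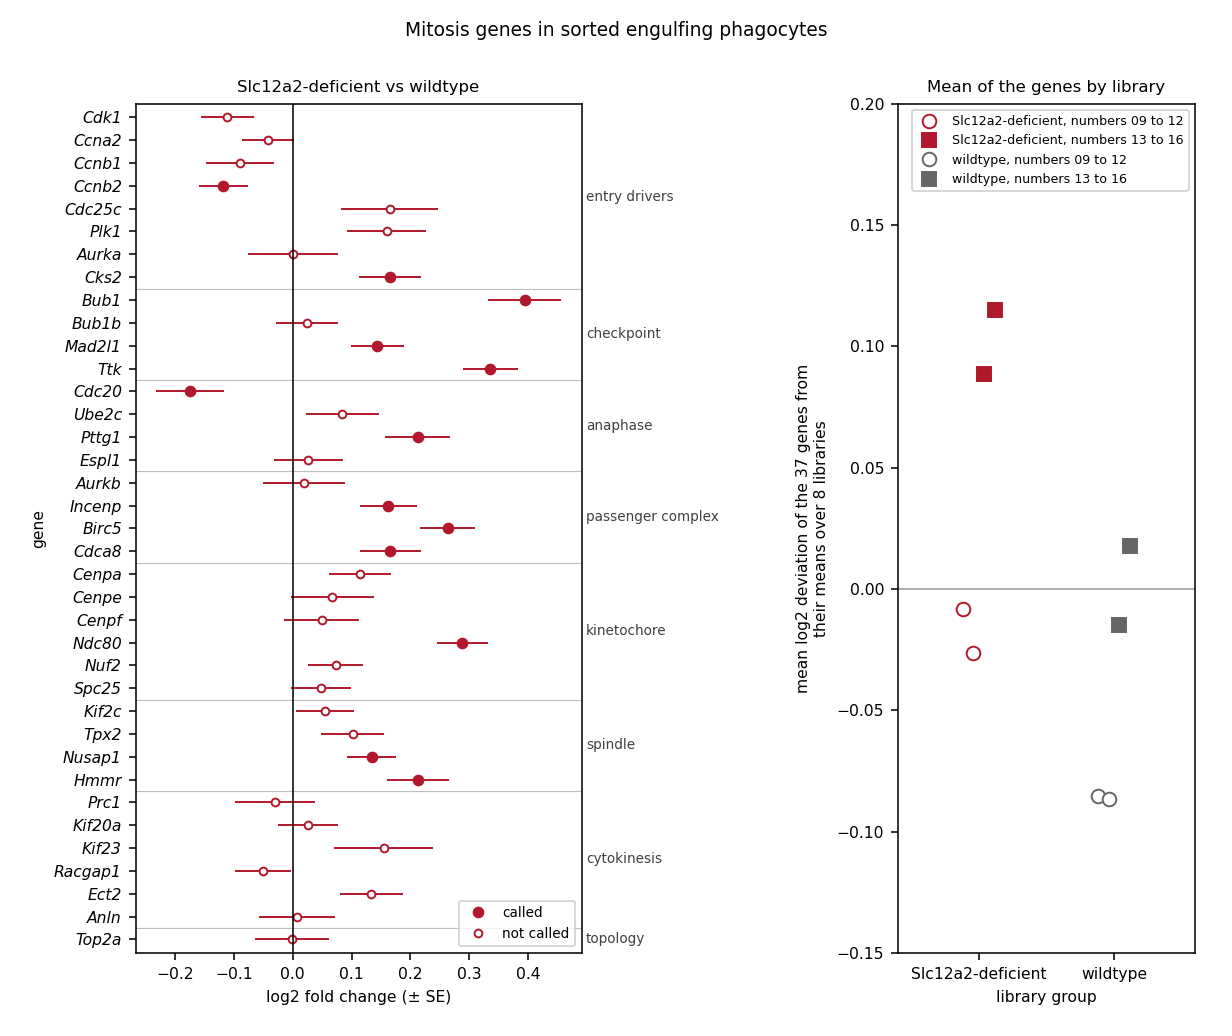
Left, log2 fold changes (± SE) of 37 mitosis genes in Slc12a2-deficient against wildtype phagocytes, filled where called, with Bub1 highest at 0.39 and Cdc20 lowest at -0.17. Right, the mean log2 deviation of the 37 genes in each of 8 libraries, which is higher for numbers 13 to 16 (squares) than for 09 to 12 (open circles) within both genotypes.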

How the data were processed

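RNA was measured in 24 libraries of 6 groups of 4. Per the labels, Jurkat cells received 1500 mJ of ultraviolet C light and stood for 4 h, and 75 bp paired-end reads came from total RNA. The authors deposited raw fragment counts per gene name, made with featureCounts 1.5.0 from STAR alignments over exons, with both ends aligned and no strand option, per the file headers, so reads of overlapping or antisense genes cannot be told apart. FastQC, STAR, featureCounts and DESeq2 are named in the submitters' processing notes. For STAR, neither version nor genome build is given in the sources used here.

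A row with a blank name, 0.0289% to 0.0379% of counts by group in the first experiment, 1.42% in Slc12a2-deficient and 1.34% in wildtype libraries, was left out. Each experiment was fitted alone with edgeR 4.0.16 in R 4.3.3 on the counts as deposited, with TMM factors, filterByExpr at a minimum count of 10 and total of 15, and two-sided quasi-likelihood tests by group, with Benjamini-Hochberg adjustment over all 13106 or 13050 genes tested. Common biological coefficients of variation were 7.04% and 6.06%. CPM are TMM-scaled, and RPKM are CPM per kilobase of the deposited gene length. The script was tested on simulated data. Members and gene lists were chosen with earlier results of these data known. Named genes are all members, up to 3 per other list and direction that were called without overlap and had the largest change, Slc12a2 and cell type markers. Alternatives were DESeq2 1.42.0, limma-voom 3.58.1, other factors, filters and thresholds, a gene length trend, the compared groups alone, the replicate number, library number and left-out libraries; the last that stood apart and the library number were added after seeing the data. Promoter motifs were not analysed here.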

Additional observations from a re-analysis of the deposited data

Results flagged for a closer look

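In 7 of 222 sets of 4 libraries (37 genes in 6 groups), 1 library lay far from the other 3 by Dixon's test, which chance alone does in about 1 set in 20. In all 7 it was the highest. Cdc20 had 326 CPM in apoptotic cells 3, where the others had 289 to 290 CPM, and Cenpe had 162 CPM in apoptotic cells 2, where the others had 152 to 153 CPM. Kif20a had 110.2 CPM in apoptotic cells 4, next to 108 to 109 CPM. With cytochalasin D, library 4 had 34.3 CPM of Cks2 beside 23.9 to 25.1 CPM and 62.9 CPM of Ttk beside 48.9 to 50.7 CPM, and library 3 had 56.5 CPM of Pttg1 beside 48.2 to 49.4 CPM. Mad2l1 had 88.3 CPM in wildtype 1, where the others had 83.0 to 83.5 CPM. The effect of apoptotic cells differed with and without cytochalasin D for Cdc20, by -0.26 on the log2 scale, and for Kif23, also by -0.26, as a test of the difference.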

How the results depend on the processing

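Counts of mitosis genes called were 11, 10, 7, 10 and 2 in the first experiment (apoptotic cells against control, cytochalasin D against control, apoptotic cells under cytochalasin D, cytochalasin D with apoptotic cells, and the difference of the apoptotic cell effect with and without the drug) and 13 in the second. None of the 53 called fold changes of mitosis genes reversed in an alternative. The median of the 37 for cytochalasin D against control, 0.0044, was -0.0029 by DESeq2 and -0.003 without the 3 libraries that stood apart. At an adjusted p under 0.01 the counts were 6, 5, 3, 6, 0 and 6, where the 0 stands beside 6 higher and 8 lower at an unadjusted p under 0.05 by edgeR. Without the 3 libraries that stood apart, cytochalasin D against control gave 6, apoptotic cells under cytochalasin D 3, and the difference 0, with 3 higher and 6 lower at an unadjusted p under 0.05 by edgeR. Fitted on the compared groups alone, apoptotic cells under cytochalasin D gave 3. DESeq2 gave 5 for the difference. Leaving out each library in turn gave 7 to 11, 7 to 10, 3 to 11, 8 to 11, 1 to 11 and 9 to 17 in the same order. The cause of these shifts was not tested, beyond fewer libraries or a stricter threshold where that is the alternative itself. Other factors, filters, limma-voom and the gene length trend kept each count within 1.5 times. Whether libraries of the first experiment with the same replicate number belong together was not settled. Of 24 pairs of libraries with the same number, 3 correlated above 0.1 (-0.06 to 0.23), and 7 of 16 libraries correlated best with their own number. Such correlations cannot decide it. With the replicate block the counts were 11, 10, 7, 10 and 3, and all earlier calls were kept. Replicates in the second experiment carry no number that pairs them. Depth limits Cdc25c most, which had the smallest count of any mitosis gene in both experiments, 68 and 211.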
